A study of Rattus norvegicus with 10 samples.

Results

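Skeletal muscle of Sprague Dawley rats carrying the treatment label TZG was compared with muscle carrying the label NC, across genes and pathways and library by library. The 7 libraries compared are 3 labelled TZG, whose titles call them drug 26, 27 and 43, and 4 labelled NC, titled 4, 5, 6 and 7, out of 10 in the series. They were taken by label alone, and no measured value entered the choice. The study asks how a herbal product, Tianhe Zhuifeng liquid extract, acts on myofascial pain syndrome, a disorder of tender, taut bands in skeletal muscle. The labels do not spell out TZG or NC, give no dose, time, age, sex or muscle, and do not say whether the TZG animals also had the pain model. They also do not say that libraries of a group came from separate animals, so each p-value measures the spread between these libraries, which may be technical. The 3 remaining libraries, labelled MPS, were not compared here.

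By way of background, a piece of muscle holds fast and slow fibres, which differ in their myosins, troponins and energy supply, and between them capillaries, nerve, connective tissue, fat and resident immune cells. In painful muscle, inflammatory lipids, cytokines, peptides such as CGRP and the receptors that read them are commonly studied. In bulk RNA such as this, fewer cells of a type and less RNA per cell cannot be told apart.

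Total counts ran from 12616160 to 15738812 per library. Acta1 (skeletal muscle actin) and Ckm (muscle creatine kinase) each lay between 23447 and 46637 CPM (counts scaled to a common library total) in all 7 libraries, so the tissue label is met in each. TZG 43 stood apart: across genes its log2 CPM correlated with the other 6 libraries at r = 0.902 to 0.921, while pairs of those 6 reached 0.936 to 0.976 (across genes, which are not independent). Transcripts of the mitochondrial genome took 18.7%, 25.4% and 38.6% of counts in TZG 26, 27 and 43 and 18.7% to 30.1% in NC, a mean of 27.6% ± 10.1 (SD, n = 3) against 25.2% ± 4.93 (n = 4), a difference that lay within that spread (exact two-sided permutation test, p = 0.743; the smallest p that 35 splits allow is 0.0571). The TMM scaling factors of edgeR, which are meant to correct for such differences in composition, were 0.731 to 0.964 in TZG and 1.03 to 1.28 in NC. They move every gene up in TZG: the median log2 fold change of all 13057 genes tested was 0.01 with them and -0.40 on library totals alone, so each small fold change below depends on that choice. Fold changes are log2, TZG minus NC, with TMM factors and their standard error, while values per library are plain CPM in the order TZG 26, 27, 43 and NC 4, 5, 6, 7.

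Of the 13057 genes, 3 passed an adjusted p of 0.05 in the edgeR quasi-likelihood test (0.023%): 2 rose in TZG (0.0153%) and 1 fell (0.00766%). On library totals the split was 2 and 3. Tceal7, a small X-linked nuclear protein of the transcription elongation factor A-like family (ENSRNOG00000037645, chromosome X, 106774980 to 106777072; the genome build of the table's positions is not given in the sources used here), was at 22.6, 31.7 and 65.4 CPM in TZG and 5.82, 4.20, 3.05 and 3.57 in NC. Every TZG library stood above every NC library, with a log2 fold change of 3.73 ± 0.451 (edgeR adjusted p = 0.0451). LOC100911575 (ENSRNOG00000037607), which the table describes as like the acidic ribosomal protein P2 of the large subunit, was at 39.8, 26.9 and 31.3 CPM against 11.3, 11.9, 15.3 and 10.2, again without overlap (log2 fold change 1.86 ± 0.216; edgeR adjusted p = 0.0451). How the counting treated reads that it shares with the ribosomal gene itself is not given in the sources used here, so its value is uncertain.

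Mier3, a nuclear protein of a family that joins histone deacetylase complexes (ENSRNOG00000013121, chromosome 2, 43266739 to 43294889), was at 2.22, 4.20 and 2.55 CPM in TZG and 16.6, 17.8, 18.6 and 22.3 in NC. The highest TZG library held less than every NC library, and Mier3 fell, with a log2 fold change of -2.26 ± 0.258 (edgeR adjusted p = 0.0451). These 3 calls are near the threshold. Leaving out any 1 of NC 4, 5, 6 and 7 left 0 genes past it, with 1666 to 1949 at an unadjusted p under 0.05. Without TZG 26 the count was 2, without TZG 27 it was 1, and without TZG 43 it was 20, of which 14 were higher, the same 3 genes among them. Over 1.5-fold larger or smaller counts also came from other tools: DESeq2 called 686 genes, 503 of them higher, and limma-voom 0, with 2197 at an unadjusted p under 0.05.

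Below the threshold, 92 genes (0.705%) had an adjusted p under 0.1, 74 of them higher in TZG (0.567%) and 18 lower (0.138%). The genes of smallest p on the higher side included parts of the contractile apparatus and of both ribosomes. Actn2, the alpha-actinin that crosslinks actin at the Z-disc, was at 486, 786 and 331 CPM against 175, 94.6, 189 and 83.5 (log2 fold change 2.36 ± 0.317; edgeR adjusted p = 0.0639). Tpm2, the beta tropomyosin of the thin filament, was at 4829, 12987 and 12733 CPM against 2714, 2633, 1626 and 3079 (2.43 ± 0.412; adjusted p = 0.0987). In both genes the lowest TZG library exceeded the highest NC library. Apobec2, a muscle-enriched member of the cytidine deaminase family, was at 936, 1400.5 and 697 CPM against 442, 438, 355 and 274 (1.79 ± 0.261; adjusted p = 0.0799). Mrpl14, a protein of the large mitochondrial ribosomal subunit, had a log2 fold change of 1.51 ± 0.196, Rpl13, a protein of the large cytosolic subunit, one of 1.63 ± 0.227, and Coq7, an enzyme of ubiquinone synthesis, one of 1.49 ± 0.236. Ptpa, an activator of protein phosphatase 2A, stood at 1.23 ± 0.192, and Pcbp4, an RNA-binding protein, at 1.26 ± 0.199. The adjusted p of these 5 lay between 0.0633 and 0.0970. These 5, like Actn2, Tpm2 and Apobec2, were named from genes without overlap in CPM, so that separation was fixed by the choice.

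On the lower side, Igfn1, a large immunoglobulin-repeat protein of the muscle Z-disc, was nearly absent from TZG at 0.318, 0.3002 and 1.14 CPM and ranged over 11.4, 52.0, 47.5 and 15.4 CPM in NC. Its log2 fold change of -5.29 ± 0.780 is the largest of the 10 lower genes named by the rule, with an edgeR adjusted p of 0.0799. Pnpla7, a lysophospholipase, was at 48.5, 44.4 and 13.3 CPM against 180.2, 139, 278 and 295 (-2.28 ± 0.395; adjusted p = 0.0987). Tpx2, a spindle assembly factor, was at 7.43, 8.26 and 3.55 CPM against 14.2, 75.4, 53.7 and 80.4. NC 4 lay far below the other NC libraries in Tpx2 and yet above all of TZG. Ednrb, the endothelin B receptor, was at 1.40, 1.576 and 1.14 CPM against 4.49, 4.28, 8.64 and 8.99 (-1.84 ± 0.355; adjusted p = 0.0987). Wipf3, a partner of the actin regulator WASP, had a log2 fold change of -2.28 ± 0.402, Plxna3, a semaphorin receptor, one of -2.06 ± 0.403, and Morc3, a nuclear ATPase, one of -1.13 ± 0.183. Zdhhc17, a palmitoyltransferase, stood at -0.94 ± 0.187 and MGC105567, with no role given here, at -2.36 ± 0.461, and all 5 had an adjusted p of 0.0987. Lack of overlap in CPM was again a condition for naming these genes. Of all genes tested, 25% were lower in TZG without overlap on that scale and 1.35% higher, because it carries no TMM factor. In normalised CPM the shares were 8.33% and 9.43%.

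**Figure D1:**
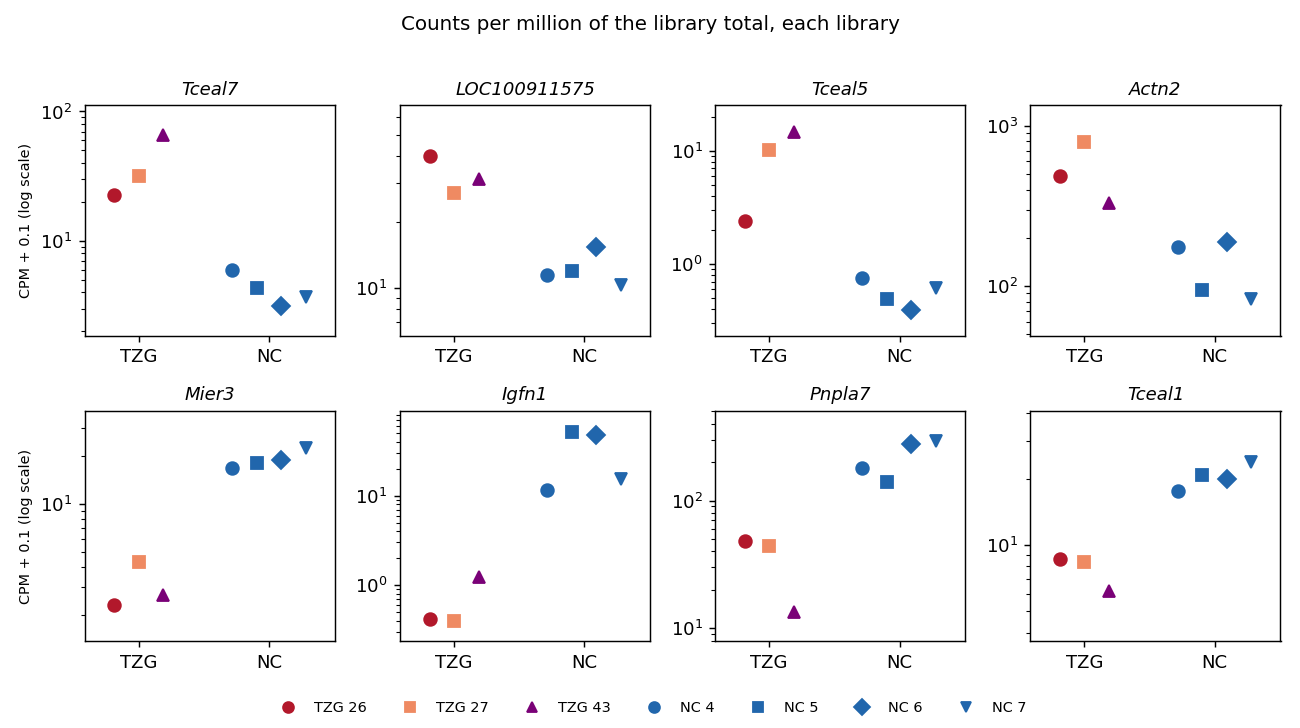
CPM plus 0.1 of 8 genes on log axes, 1 point per library, with TZG libraries in warm colours on the left and NC libraries in blue on the right. Tceal7, LOC100911575, Tceal5 and Actn2 are higher in all 3 TZG libraries than in any NC library, and Mier3, Igfn1, Pnpla7 and Tceal1 are lower.

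Relatives of Tceal7 were looked at after its value was seen. On the X chromosome, Tceal5 was at 2.29, 10.1 and 14.7 CPM against 0.663, 0.396, 0.298 and 0.520 (log2 fold change 4.69 ± 0.653; edgeR adjusted p = 0.0639) and Tceal6 at 1.46, 2.78 and 5.46 against 0, 0.396, 0.223 and 0.446 (4.03 ± 0.789; adjusted p = 0.0987). Both were lowest in TZG 26 and highest in TZG 43, as Tceal7 was. The family was not of 1 direction: Tceal1 was at 8.58, 8.26 and 6.10 CPM against 17.6, 20.8, 20.04 and 23.9 (-1.03 ± 0.206; adjusted p = 0.0987), while Tceal8 had a log2 fold change of 0.10 ± 0.200 and Tceal9 of 0.88 ± 0.362, with overlap between the groups in both. Tceal3 was too low to test. Tceal5 and Tceal6 are close copies, so reads could be split between them.

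The promoters of Tceal5, Tceal6 and Tceal7 are shown because they share a short motif. Each line gives the 100 bases before the annotated start, 5′ to 3′ on the gene's strand, from RefSeq on GRCr8, with the E-box CACGTG (the same on both strands) in capitals. Tceal5 lies at chrX:103998938-103999037 on the minus strand, Tceal6 at chrX:102632770-102632869 on the minus strand and Tceal7 at chrX:104019984-104020083 on the plus strand.
Tceal5: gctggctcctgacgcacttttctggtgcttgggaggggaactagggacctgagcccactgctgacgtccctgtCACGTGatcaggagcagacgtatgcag
Tceal6: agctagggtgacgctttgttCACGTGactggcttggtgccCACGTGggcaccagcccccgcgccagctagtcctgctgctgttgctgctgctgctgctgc
Tceal7: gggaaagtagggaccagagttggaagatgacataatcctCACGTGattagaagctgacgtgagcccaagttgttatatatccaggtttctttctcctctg
In the 250 bases before the start, the motif was found in 6 of the 7 Tceal promoters, those of Tceal1 and Tceal8 among them, and in 5.59% of all 33469 promoters. So it was present both in members that were higher and in one that was lower, and absent from Tceal9, which was higher with overlap. Among the 20 genes named by the rule, 15 had a promoter in the table and 4 of these held the motif: Actn2, Pnpla7, Tceal5 and Tceal7. Such a match describes the sequence only.

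Gene lists were then described by their members' counts and medians, beside 51.1% of all genes tested being higher and 48.9% lower, 10.4% higher at an unadjusted p under 0.05 and 7.1% lower at it. No member of any of the 48 lists had an adjusted p under 0.05. The mean log2 level of tested members, with TMM factors, was above NC in all 3 TZG libraries in 8 lists: fast and slow fibre, Z-disc, calcium handling, neuromuscular junction, oxidative phosphorylation and both ribosomes. It was below NC in all 3 in 3 lists: circadian clock, matrix proteases, and neutrophil and mast cell markers. Of all single genes tested, 9.43% were higher and 8.33% lower without overlap in normalised CPM. In the neutrophil and mast cell list the smallest unadjusted p was 0.0567 (edgeR), for Lcn2. Csf3r (0.42 ± 0.448) and S100a8 (0.22 ± 0.488), at no more than 2.61 CPM, were higher, and its other tested members were lower. With TMM factors 23 of 48 medians were above 0, and on library totals 10 were. Where leaving out 1 library moved a list's median by over 1.5 times or turned its sign, the medians without TZG 26, 27 and 43 follow it in that order after the word or, with any such median without an NC library.

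**Figure D2:**
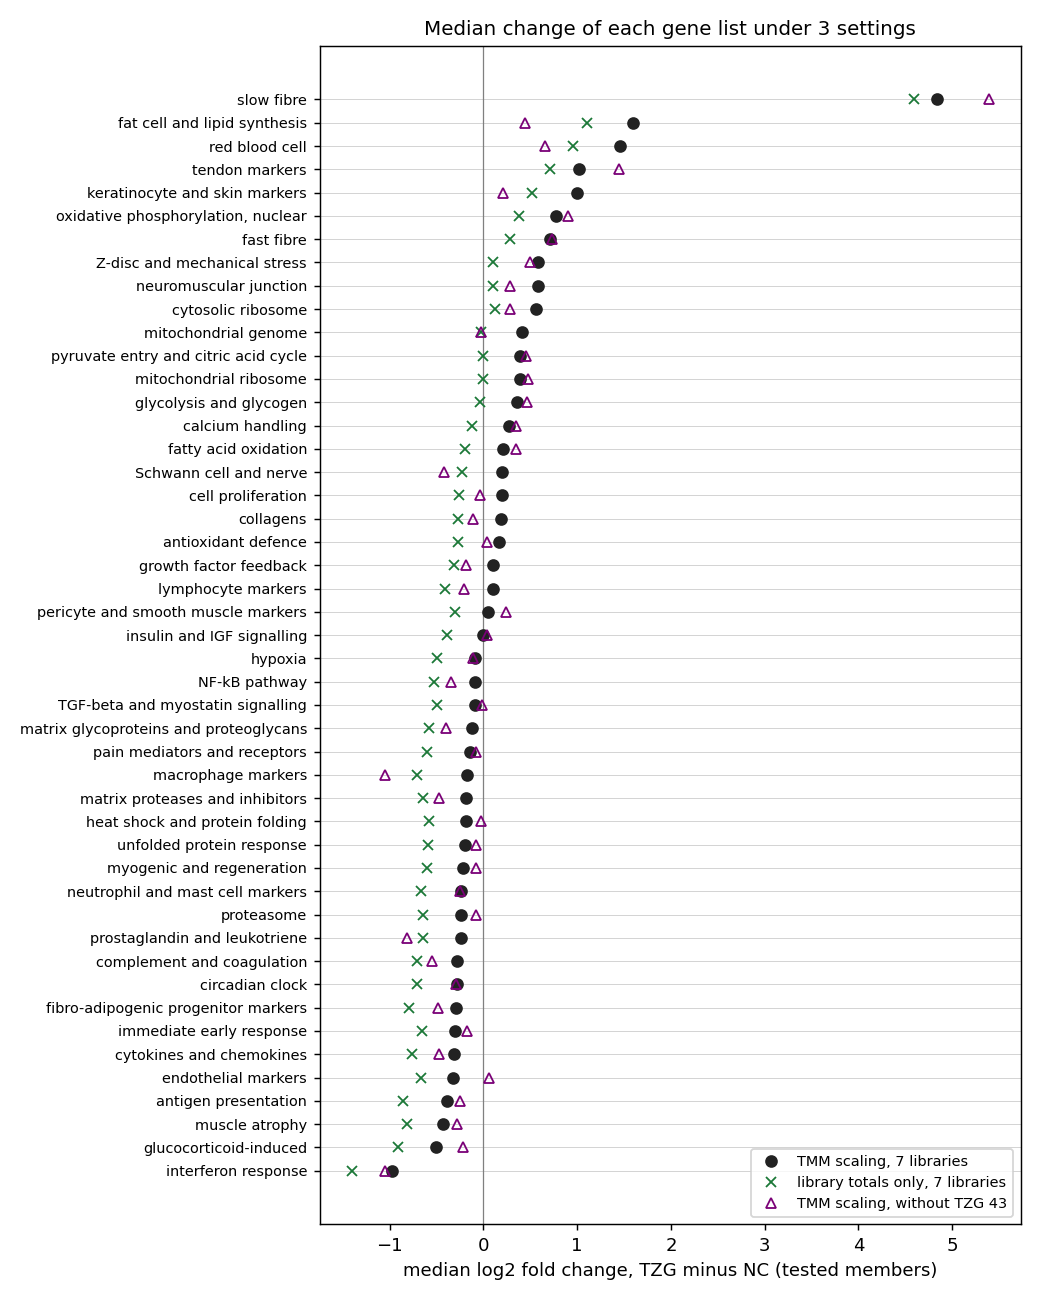
Median log2 fold change of the tested members of 47 gene lists (horizontal axis; the sex-linked list is not drawn), with TMM factors (filled circles), on library totals (crosses) and with TMM factors but without TZG 43 (open triangles). Crosses lie left of the circles throughout, and the fat, red blood cell, macrophage and endothelial lists are among those that move most without TZG 43.

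Nuclear genes of oxidative phosphorylation, the respiratory chain and ATP synthase of mitochondria, were higher in TZG in 69 of 70 tested members, at a median log2 fold change of 0.77. An unadjusted p under 0.05 was found for 57 of them, and 50 did not overlap in normalised CPM. In plain CPM 4 did not, and the list's summed CPM was 34736, 26004 and 17371 in TZG against 23725, 18947, 20212 and 18975 in NC, with TZG 43 the lowest of all 7. Ndufb8, a complex I subunit, was at 535, 273 and 263 CPM against 203, 177.2, 183 and 149.8 (log2 fold change 1.41 ± 0.271; edgeR adjusted p = 0.0987). Cox8a, of complex IV, was at 80.8, 71.5 and 67.8 against 52.9, 55.8, 52.9 and 42.4 (0.94 ± 0.189; adjusted p = 0.0987), without overlap in either gene. Uqcr10 and Cyc1, both of complex III, stood at 1.33 ± 0.255 and 1.14 ± 0.241, with overlap in plain CPM. The 13 protein genes of the mitochondrial genome had a median of 0.41, or 0.68, 0.56 and -0.027, and none at an unadjusted p under 0.05. The median was -0.03 on library totals.

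The citric acid cycle list was higher in 23 of 25 (median 0.39, or 0.24, 0.45 and 0.45) and glycolysis in 18 of 24 (0.36, or 0.19, 0.42 and 0.46), but on library totals both medians were just below 0, at -0.0027 and -0.04. Dlst, which belongs to the oxoglutarate dehydrogenase complex, was at 112, 87.8 and 80.3 CPM against 79.2, 51.7, 77.3 and 55.9 (0.93 ± 0.204; adjusted p = 0.105) and Gapdh, a glycolytic enzyme, at 2164, 2026 and 1444 against 1397, 1095, 1169.9 and 712 (1.18 ± 0.257; adjusted p = 0.105). Fatty acid oxidation was higher in 19 of 29 (median 0.21, or 0.046, 0.27 and 0.35; -0.19 on library totals), with Etfb, an electron carrier from fatty acid breakdown, at 210.1, 171 and 81.0 CPM against 92.0, 61.3, 90.0 and 55.9. In plain CPM Etfb lay within the NC range in TZG 43 alone. In normalised CPM the groups did not overlap (1.43 ± 0.279; edgeR adjusted p = 0.0987).

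Fast fibre genes were higher in 14 of 14 members (median 0.71), 9 of them at an unadjusted p under 0.05, and their median was 0.29 on library totals and 0.73 without TZG 43. Pvalb, the calcium buffer parvalbumin of fast fibres, was at 5821, 4097 and 6775 CPM against 2581, 2697, 2765 and 2097 (log2 fold change 1.59 ± 0.289; edgeR adjusted p = 0.0987). Mylpf, the fast regulatory light chain, was at 26300.5, 13430.2 and 18727 against 12941, 12357, 10124 and 8799 (1.24 ± 0.330; adjusted p = 0.128). The 2 groups did not overlap in these genes, nor in Tnni2, fast troponin I (0.95 ± 0.281). Myh4, the fastest myosin heavy chain, did overlap in plain CPM, at 18241, 20573 and 14803 against 18734, 15404, 23795 and 20013. In normalised CPM its groups did not overlap (0.29 ± 0.238, and -0.12 on library totals, with an edgeR adjusted p of 0.558). In the Z-disc list, 14 of 18 were higher (median 0.59, or 0.44, 0.31 and 0.50); beside Actn2, Csrp3, a muscle LIM protein of slow fibres, was at 4.38, 81.4 and 16.4 CPM against 2.14, 2.38, 5.14 and 2.38, highest in TZG 27. Of calcium handling genes, 16 of 22 were higher at a median of 0.28 (-0.12 on library totals), among them Stac3, an adaptor of the calcium channel, at 1.01 ± 0.264.

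Cytosolic ribosomal protein genes were higher in 71 of 74 (median 0.56, or 0.65, 0.70 and 0.29), 41 of them at an unadjusted p under 0.05. Without overlap were 38 in normalised and 12 in plain CPM. Rpl12 was at 58.5, 45.1 and 76.6 CPM against 31.7, 25.4, 39.2 and 22.6 (1.49 ± 0.275; adjusted p = 0.0987), and Rpl36a and Rpl35a had log2 fold changes of 1.19 ± 0.229 and 1.02 ± 0.198, all without overlap. These genes have many processed copies, so their counts are uncertain. The mitochondrial ribosome was higher in 66 of 71 (median 0.39, or 0.24, 0.44 and 0.47), with 29 at an unadjusted p under 0.05, among them Mrpl20 at 1.01 ± 0.199. Its median was -0.0044 on library totals. Gene length moved with these results: across the genes tested, log2 fold change and length had a Spearman rho of -0.256 (n = 13057), short genes being higher. With a length correction per library the medians were 0.50 for oxidative phosphorylation, 0.62 for fast fibre, 0.28 for the cytosolic and 0.28 for the mitochondrial ribosome.

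**Figure D3:**
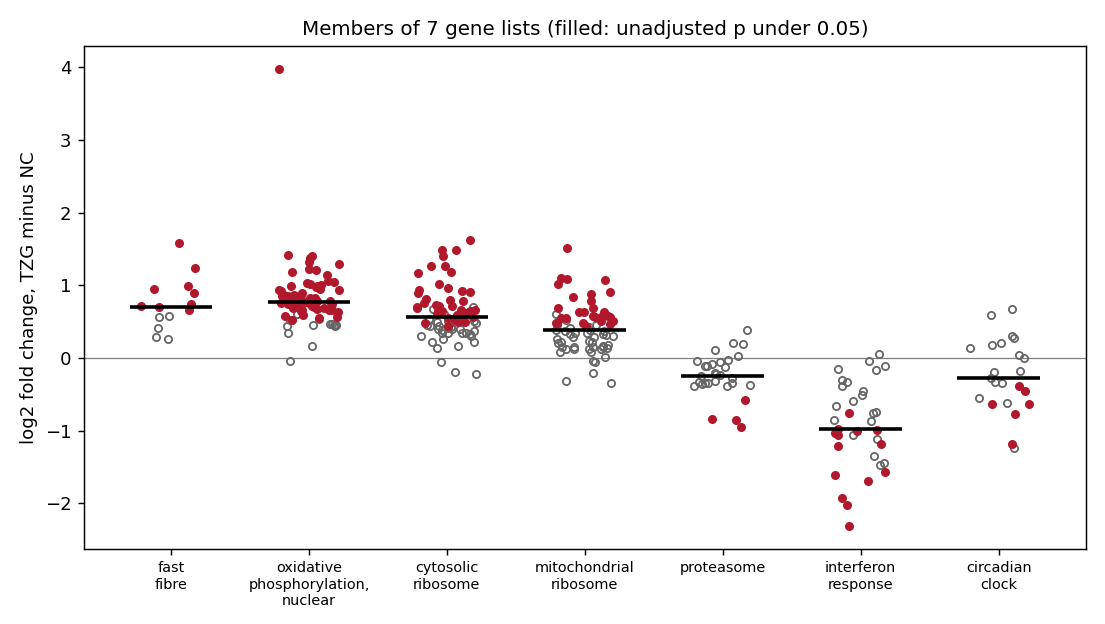
Log2 fold change, TZG minus NC, of the tested members of 7 lists (vertical axis), 1 point per gene, filled at an unadjusted p under 0.05, with the list's median as a bar. The respiratory chain point near 4 is Cox7a1, at 3.98, a gene with no more than 3.45 CPM in any of the 7 libraries.

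Interferon-induced genes, which cells switch on after type I or II interferon, were lower in TZG in 34 of 35 tested members, at a median log2 fold change of -0.97. Of these 14 had an unadjusted p under 0.05, and 8 did not overlap in normalised CPM. Ifit1, which binds viral RNA, was at 5.78, 9.31 and 3.41 CPM in TZG and 32.1, 11.8, 54.2 and 63.2 in NC (log2 fold change -2.31 ± 0.497; edgeR adjusted p = 0.105). Ifih1, the RNA sensor MDA5, was at 4.32, 5.18 and 3.69 against 12.002, 6.58, 15.6 and 15.01 (-1.06 ± 0.285; adjusted p = 0.128). Ifi44l was at 1.84, 1.801 and 1.703 against 4.86, 4.28, 10.7 and 9.74 (-1.60 ± 0.368) and Ifi44 at 11.6, 12.6 and 11.8 against 22.9, 20.8, 44.8 and 40.7 (-0.99 ± 0.263). In each of these 4 genes every TZG library lay below the lowest NC library, which was NC 5 each time, and NC itself spread widely. The summed CPM of the list did overlap, at 552, 577 and 408 in TZG against 824, 530.03, 1752 and 1195 in NC. Leaving out TZG 26, 27 or 43 gave medians of -0.94, -0.92 and -1.05, and -0.53 without NC 6. Antigen presentation genes, which interferon also raises, were lower in 19 of 24 (median -0.39, or -0.59, -0.16 and -0.25, and -0.21 without NC 4), B2m, the light chain of class I molecules, being at 554, 456 and 421 CPM against 885, 664, 945 and 1096 (-0.49 ± 0.217; adjusted p = 0.281).

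The 100 bases before the start are given for 4 list members that hold the interferon-stimulated response element (GAAA, any 2 bases, GAAA). They come from RefSeq on GRCr8, with the element, read on either strand, in capitals. Ifit1 was not among the members in which it was found. Ifit3, not described above, stood at -1.56 ± 0.488 (edgeR adjusted p = 0.167), with overlap in normalised CPM. Ifi44 lies at chr2:243303841-243303940 on the minus strand, Ifi44l at chr2:243328623-243328722 on the plus strand, Ifih1 at chr3:67683969-67684068 on the minus strand and Ifit3 at chr1:241527226-241527325 on the plus strand.
Ifi44: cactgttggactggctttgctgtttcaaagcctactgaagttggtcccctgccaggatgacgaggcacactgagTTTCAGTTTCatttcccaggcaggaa
Ifi44l: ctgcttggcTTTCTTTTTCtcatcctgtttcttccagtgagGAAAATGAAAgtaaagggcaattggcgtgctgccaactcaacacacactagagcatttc
Ifih1: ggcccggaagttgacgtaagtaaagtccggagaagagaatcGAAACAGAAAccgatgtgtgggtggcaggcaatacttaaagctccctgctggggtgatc
Ifit3: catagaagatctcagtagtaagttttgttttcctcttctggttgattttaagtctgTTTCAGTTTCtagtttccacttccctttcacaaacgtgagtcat
Of the 37 list members in the table, 28 had a promoter, and 19 of them (67.9%) held the element in the 250 bases before the start, against 3.41% of all 33469 promoters. The list was written from knowledge of interferon targets, so this share describes the list and bears on no factor's activity. Among the 15 promoters of the 20 genes named by the rule, 0 held it.

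Clock genes were lower in 15 of 23 (median -0.28, or -0.32, -0.12 and -0.29), 6 at an unadjusted p under 0.05. Ciart, a repressor of the clock's activators, was at 3.56, 4.65 and 5.61 CPM against 14.1, 10.5, 19.6 and 13.2 (-1.18 ± 0.279; edgeR adjusted p = 0.108), and Usp2, a deubiquitinase under clock control, at 12.5, 11.6 and 12.7 against 25.3, 19.1, 37.8 and 21.4 (-0.63 ± 0.231; adjusted p = 0.211). Neither overlapped. Nr1d2, a nuclear receptor of the clock, stood at -0.45 ± 0.172, Csnk1e, a kinase of period proteins, at -0.39 ± 0.163 and Per1 at -0.62 ± 0.285 (adjusted p = 0.294). The time of day at which each muscle was taken is not given in the labels, and its part was not tested. The E-box CACGTG was found in 4 of 15 promoters of this list (26.7%), against 5.59% of all 33469 promoters. The 4 were those of Bhlhe40, Bhlhe41, Ciart and Tef, and the share describes the list only.

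**Figure D4:**
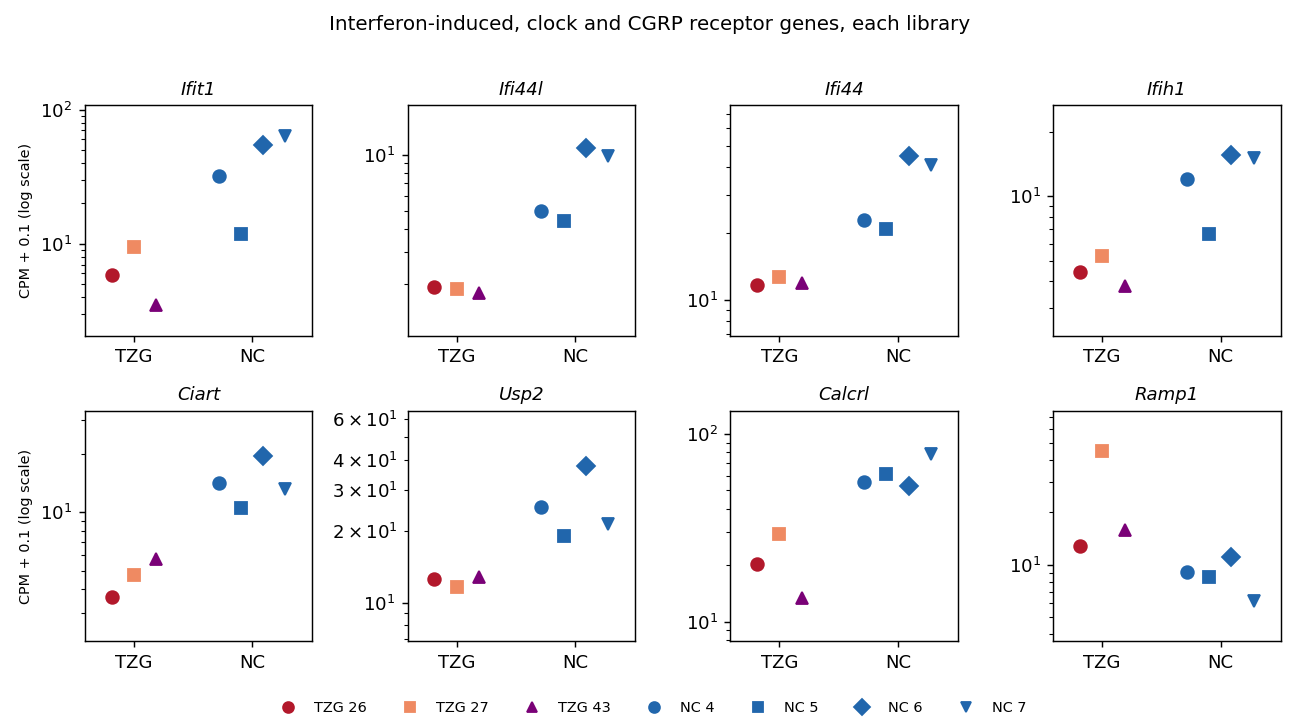
CPM plus 0.1 on log axes of 4 interferon-induced genes, 2 clock genes and both parts of the CGRP receptor, 1 point per library. The first 7 panels are lower in all TZG libraries than in any NC library, and Ramp1 in the last panel is higher.

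Genes of pain signalling had a median of -0.14 (or -0.41, -0.12 and -0.079, and -0.049 without NC 6) over 23 tested members of 44 in the table, with 4 lower and 1 higher at an unadjusted p under 0.05. The 2 parts of the receptor for CGRP, a vasodilator peptide of sensory nerves, differed in direction. Ramp1, the small subunit that gives the receptor its preference for CGRP, was at 12.6, 44.6 and 15.8 CPM against 8.98, 8.40, 11.02 and 6.10 (log2 fold change 1.86 ± 0.365; edgeR adjusted p = 0.0987). Calcrl, the subunit that spans the membrane and signals, was at 20.1, 29.1 and 13.3 against 55.2, 61.1, 53.0 and 77.7 (-1.20 ± 0.245; adjusted p = 0.0987). Neither overlapped, and both kept their direction in the fits that left out 1 library each. Calcrl is also strong in endothelium, and endothelial markers had a median of -0.32 (or -0.45, -0.67 and 0.061), a part in the result that was not tested. Cnr1, the cannabinoid receptor of nerve, was at 0.127, 0.150 and 0.284 CPM against 0.663, 1.35, 0.745 and 1.26 (-1.97 ± 0.665; adjusted p = 0.184). Of the peptides themselves, Calca (CGRP) had counts in NC 5 alone, at 0.396 CPM, and Tac1 (substance P) was at 0 in all 7 libraries, which at 3 counts a library does not exclude a low level.

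Of the classic inflammatory mediators, Il6 and Tnf, at no more than 0.295 and 1.18 CPM, were too low to test. Il1b was at 1.27, 0.976 and 3.55 CPM against 1.84, 1.19, 1.19 and 1.78 (0.85 ± 0.564; adjusted p = 0.458), Ccl2, a monocyte chemokine, at 2.35, 2.70 and 1.85 against 3.02, 4.99, 7.001 and 0.966 (-0.37 ± 0.535; adjusted p = 0.754) and Ptgs2, cyclooxygenase 2, at 1.14, 0.225 and 0.923 against 0.884, 2.93, 0.745 and 0.669 (-0.35 ± 0.764; adjusted p = 0.851). The groups overlapped in all 3 genes. Over the list of cytokines, chemokines and their receptors 22 of 29 were lower (median -0.31, or -0.33, -0.16 and -0.47, and -0.12 without NC 6). Il6r, an interleukin 6 receptor chain, was at 6.04, 5.63 and 6.53 CPM against 13.8, 11.3, 14.8 and 14.4 (-0.73 ± 0.221; edgeR adjusted p = 0.159), and Il1r1, the interleukin 1 receptor, at 1.33, 3.23 and 1.77 against 9.87, 4.60, 4.25 and 8.62 (-1.32 ± 0.432; adjusted p = 0.178). Ccl5, a chemokine for T cells, ran the other way at 6.93, 2.10 and 6.17 CPM against 3.02, 3.49, 2.53 and 2.38, with overlap (1.28 ± 0.449; adjusted p = 0.196). The lipid mediator list was lower in 16 of 24 (median -0.24, or -0.15, -0.0066 and -0.82, and -0.083 without NC 4, and -0.12 without NC 7). In it Alox5, the first enzyme of leukotriene synthesis, was at 3.37, 4.20 and 4.90 CPM against 10.97, 8.16, 21.0 and 6.69 (-1.02 ± 0.375; adjusted p = 0.211) and Pla2g2d, a secreted phospholipase, at 4.003, 2.18 and 7.03 against 16.9, 18.5, 19.8 and 11.001 (-1.42 ± 0.434; adjusted p = 0.159). Pla2g2a, another secreted phospholipase, and Alox15, a lipoxygenase, had log2 fold changes of 3.39 ± 0.854 and 3.28 ± 1.08, with TZG 43 far above the other libraries at 59.0 and 20.4 CPM. Macrophage markers had a median of -0.18, or 0.015, 0.26 and -1.05, and 0.068 without NC 6, with 0 of 23 at an unadjusted p under 0.05. Without TZG 43, 23 of 23 were lower and 12 were at an unadjusted p under 0.05. In that fit, 2637 of all 13331 genes tested, higher or lower, were at an unadjusted p under 0.05.

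Genes of muscle breakdown were lower in 14 of 20 (median -0.43, or -0.43, -0.53 and -0.29, and -0.21 without NC 7). Fbxo32, the ubiquitin ligase atrogin-1, was at 25.5, 19.4 and 3.05 CPM against 29.3, 26.9, 68.8 and 75.9 (-1.28 ± 0.572, with an edgeR adjusted p of 0.286). In normalised CPM its groups overlapped. Trim63, the ligase MuRF1, overlapped on both scales, at 232, 150.3 and 71.9 CPM against 190.1, 143, 217 and 207 (0.06 ± 0.302, with an adjusted p of 0.937). The autophagy genes Map1lc3b and Sqstm1 stood at -1.31 ± 0.375 and -1.19 ± 0.378, with adjusted p of 0.145 and 0.171. In plain CPM both were below NC in every TZG library, but in normalised CPM Sqstm1 overlapped. Fst of the same list, the myostatin antagonist follistatin, stood on the higher side at 1.81 ± 0.663 (adjusted p = 0.211). Proteasome subunits were lower in 25 of 30 (median -0.24, or -0.41, -0.21 and -0.076, and -0.092 without NC 7), 4 of them at an unadjusted p under 0.05. Glucocorticoid-induced genes were lower in 17 of 23 (median -0.50, or -0.79, -0.60 and -0.22, and -0.33 without NC 7), with Tsc22d3 at 94.5, 91.0 and 41.1 CPM against 136, 109.9, 237 and 228 (-0.84 ± 0.302; adjusted p = 0.207) and Fkbp5 overlapping (0.25 ± 0.282, and -0.20 on library totals). Klf9, a target of the same hormone, stood at 0.44 ± 0.181 (adjusted p = 0.248).

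Mstn, the inhibitor of muscle growth myostatin, was at 15.1, 15.6 and 15.3 CPM in TZG and 32.8, 65.8, 41.6 and 74.1 in NC (log2 fold change -1.40 ± 0.318; edgeR adjusted p = 0.108). In plain CPM the 3 TZG libraries lay within 1 CPM of each other and below all of NC. In normalised CPM they spread more, with a mean ± SD of 18.1 ± 2.45 against 48.0 ± 19.5 in NC, again without overlap. In the same signalling list (median -0.09, or -0.087, -0.14 and -0.013, and -0.043 without NC 6), Ltbp1 and Tgfbr3, which hold and present TGF-beta, stood at -1.09 ± 0.283 and -0.79 ± 0.213, and Pmepa1, a feedback inhibitor of the pathway, at 1.90 ± 0.381. Myog, the differentiation factor myogenin, was at 46.3, 9.83 and 5.18 CPM against 80.3, 34.5, 59.3 and 30.7 (-0.93 ± 0.636; adjusted p = 0.473), and the stem cell factor Pax7 was too low to test, at no more than 1.10 CPM. Akt1, a kinase of insulin signalling, was at 95.7, 107 and 105 against 84.8, 68.7, 94.5 and 77.6 (0.76 ± 0.174; adjusted p = 0.108). Ppargc1a, the coactivator of mitochondrial biogenesis, overlapped at 4.38, 4.73 and 2.84 against 4.79, 4.99, 4.54 and 0.669.

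Matrix proteases and their inhibitors were lower in 15 of 26 (median -0.18, or -0.075, 0.066 and -0.47, and -0.022 without NC 6), 6 at an unadjusted p under 0.05. Plau, the urokinase that activates plasminogen, was at 20.7, 25.1 and 10.4 CPM against 39.8, 33.5, 47.2 and 45.3 (-0.77 ± 0.225; edgeR adjusted p = 0.150), Timp3, a protease inhibitor, at 29.4, 56.9 and 18.4 against 90.9, 62.3, 97.05 and 99.4 (-0.96 ± 0.290; adjusted p = 0.157), and Adamts1, a proteoglycan-cleaving protease, at 24.1, 41.5 and 7.95 against 63.4, 63.5, 86.8 and 70.9 (-1.20 ± 0.373; adjusted p = 0.167). Nid2, a basement membrane linker, was at 24.6, 18.4 and 13.1 against 43.8, 39.8, 52.1 and 50.6 (-0.91 ± 0.202; adjusted p = 0.106). All 4 were lower in every TZG library than in any NC library. Within the hypoxia list (median -0.09, or -0.18, -0.13 and -0.11, and -0.20 without NC 5, and -0.19 without NC 6), Egln3, an oxygen-sensing prolyl hydroxylase, was at 91.9, 39.9 and 43.01 CPM against 233, 227, 194 and 386 (-1.75 ± 0.372; adjusted p = 0.105) and Higd1a, a respiratory chain protein, at 67.4, 57.6 and 42.7 against 34.7, 35.7, 30.6 and 38.1 (1.08 ± 0.196; adjusted p = 0.0987), each without overlap and in opposite directions. Antioxidant genes were higher in 18 of 28 (median 0.17, or 0.011, 0.28 and 0.033; -0.28 on library totals), 8 higher and 3 lower at an unadjusted p under 0.05. Gpx4, a peroxidase of membrane lipids, stood at 0.56 ± 0.164, Gsta4, a glutathione transferase, at 1.49 ± 0.492 and Prdx5, a peroxiredoxin, at 0.71 ± 0.239, all with overlap in plain CPM. Cat, catalase, was lower without overlap, at 91.6, 83.0 and 67.9 against 141, 138, 205 and 227 (-0.72 ± 0.212; adjusted p = 0.150). Hmox1, heme oxygenase, was at 9.53, 2.70 and 64.4 against 5.96, 5.79, 12.9 and 7.14 (adjusted p = 0.217), with TZG 43 far above the rest. Fos, an immediate early factor, overlapped at 17.6, 10.4 and 6.81 against 36.2, 58.0, 18.5 and 12.8 (-1.08 ± 0.534; adjusted p = 0.323). In the heat shock list (median -0.18, or -0.18, -0.24 and -0.022), Hspa8, a constitutive chaperone, was at 5.91, 7.20 and 3.83 against 14.3, 15.8, 14.002 and 12.6 (-0.95 ± 0.230; adjusted p = 0.111), while the chaperones Dnajb5 and Hspb6 stood on the higher side at 0.85 ± 0.221 and 1.12 ± 0.365.

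Several fold changes of large size came from 1 TZG library. Slow fibre genes had the largest list median, 4.84, with 9 of 10 at an unadjusted p under 0.05, yet their summed CPM was 165, 3976 and 181 in TZG and 204, 164, 249.7 and 193 in NC. Myh7, the slow myosin heavy chain, was at 0.191, 1309.8 and 26.8 CPM against 0.147, 0.317, 0.372 and 3.05, and Tnnt1, slow troponin T, at 0.635, 469 and 4.47 against 0, 0.159, 2.16 and 0.372. TZG 27 held nearly all of this signal, and without it the list median was 0.64. The same library was high in tendon markers, at 15.9, 269 and 9.08 summed CPM against 18.7 to 33.5 in NC. Thbs4, a thrombospondin of tendon that slow muscle also makes, was at 0.254, 148 and 1.56 CPM against 1.33, 0.634, 4.54 and 4.98, and Scx, the tendon transcription factor, at 4.13, 20.7 and 3.05 against 6.41, 3.01, 7.52 and 5.50.

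TZG 43 was high in genes of fat, skin and connective tissue. Scd, the desaturase that makes oleate, was at 10.5, 12.3 and 645 CPM against 0.515, 2.93, 0.372 and 1.11 (log2 fold change 8.08 ± 1.64; edgeR adjusted p = 0.0987), and Fasn, fatty acid synthase, at 10.2, 19.3 and 280.3 against 9.28, 11.97, 10.8 and 12.2 (adjusted p = 0.127). Scd and the fat hormone gene Retn were also above NC in the other 2 TZG libraries, whereas the fat list's median was 1.60 with TZG 43 and 0.44 without it. Krt5 and Krt15, keratins of the basal layer of skin, chosen after their values were seen, were at 34.8 and 28.8 CPM in TZG 43 and at no more than 0.238 and 0 CPM in the other 6. The whole skin list summed to 7.12, 11.8 and 150.3 CPM against 9.07 to 10.1 in NC. Col1a1, the main fibrillar collagen, was at 98.5, 197 and 1899 CPM against 118, 249.6, 541 and 225 (1.999 ± 0.913 with all libraries and -0.62 without TZG 43; adjusted p = 0.292), and Col3a1 likewise stood at 0.62 with all libraries and -0.54 without TZG 43. S100b and Mbp of Schwann cells were at 2.61, 11.3 and 63.6 and 2.54, 3.002 and 31.4 CPM in TZG, against 3.13 to 10.2 and 0.819 to 12.9 in NC. Hbb, the beta globin of red blood cells, was at 492, 553 and 961 against 400.4, 188, 425 and 353 (1.46 ± 0.349; adjusted p = 0.111), above NC in every TZG library. Endothelial markers were low in TZG 43, at 2647, 3549.9 and 594 summed CPM in TZG and 2796 to 4313 in NC. The part that skin, fat or tendon in a sample plays in any result above was not tested.

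**Figure D5:**
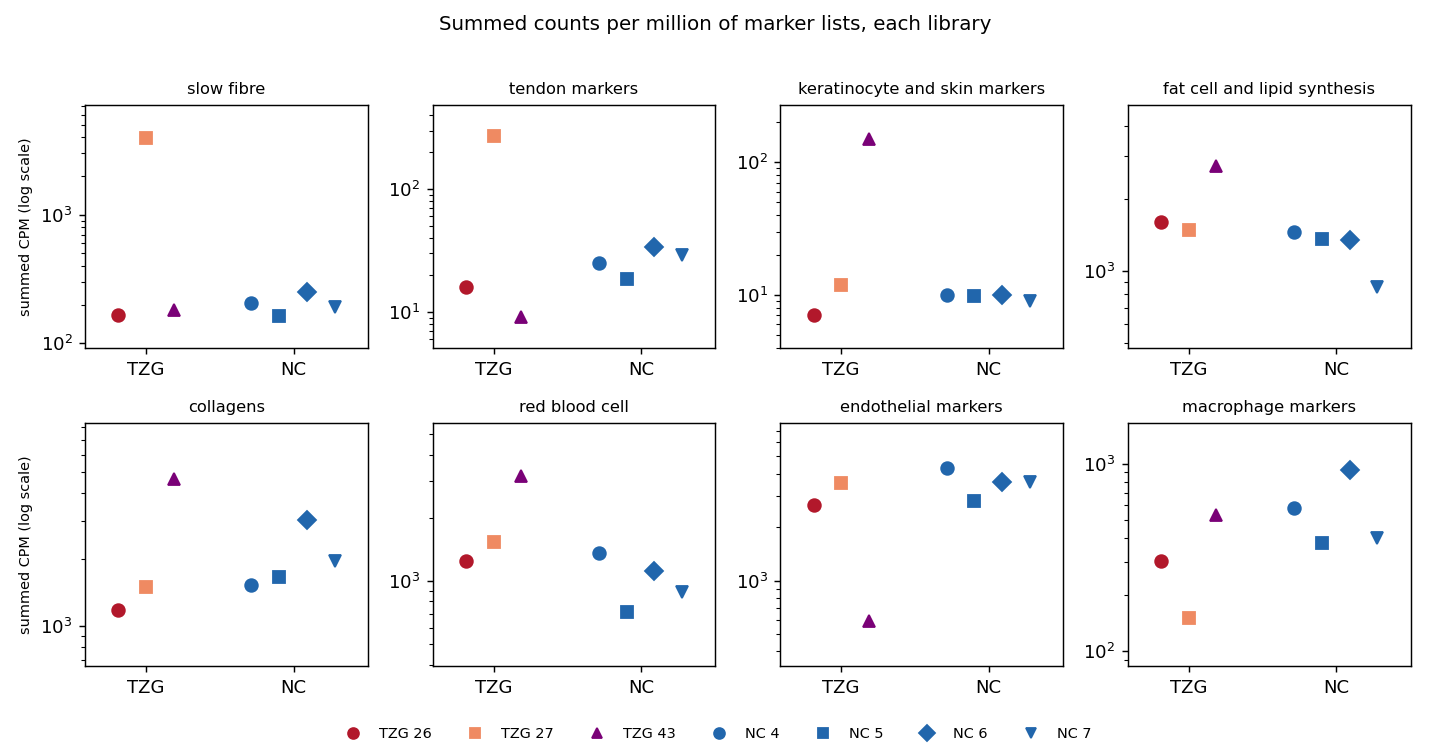
Summed CPM of the members of 8 marker lists on log axes, 1 point per library. TZG 27 (square) alone is high in slow fibre and tendon genes, and TZG 43 (triangle) is the highest in skin, fat, collagen and red blood cell genes and the lowest in endothelial genes, with TZG 27 also above NC in red blood cell genes.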

How the data were processed

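RNA from rat muscle, extracted with an RNeasy kit and sequenced from SMARTER mRNA-Seq libraries per the labels' protocols, was analysed from 1 of 2 identical tables of 32883 features. The authors deposited a whole-number count per feature and library and FPKM, per the file headers. For each comparison the authors deposited log2 fold change, p-value and q-value columns, per the file headers; these are quoted only in the closing section. Tools listed in the submitters' processing notes are HISAT2, fastp, edgeR 3.30.3 and StringTie 1.3.3b. Genome build, strand setting and treatment of shared reads are not given in the sources used here.

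Counts of the 7 libraries were fitted with edgeR 4.0.16 in R 4.3.3 (filterByExpr, TMM, quasi-likelihood test, two-sided, Benjamini-Hochberg over all 13057 genes tested, threshold 0.05). The gene lists (48, with 1300 of 1363 entries in the table) and the genes examined were chosen with earlier results of these data known, so their counts and medians are descriptions. Genes named are the 10 of smallest p in each direction without overlap in CPM, with a mean of at least 1 CPM and a proper symbol, up to 4 of smallest p per list, and 23 defining genes, though not all are printed; the Tceal relatives, Krt5, Krt15, Retn, Cox7a1 and the genes of the closing section were chosen after their values were seen. TZG columns, headed G with a number, were matched to the titles by that number. Mitochondrial shares were compared by an exact permutation test. The fit was tested on simulated counts with 200 changed genes. With the spread estimated from these libraries, it called 10 of 95 genes changed 2-fold (10.5%) and 79 of 98 changed 4-fold (80.6%), with 6 false calls. Apart from the changed genes, the simulated libraries shared 1 composition and none was made to stand apart. These shares may therefore not hold for the real libraries. Alternatives were DESeq2 1.42.0, limma-voom (limma 3.58.1), RLE factors, library totals, no filter, a 5 CPM filter, fits with MPS libraries, removal of mitochondrial transcripts, a gene length correction, other thresholds, and leaving out each library. Promoters come from RefSeq (GRCr8), 250 bases before the start, matched by symbol. Figures were drawn with matplotlib 3.10.9.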

Additional observations from a re-analysis of the deposited data

Results flagged for a closer look

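Among 93 sets of 4 NC values looked at (named genes, list sums and the mitochondrial share), 8 had 1 library far from the other 3; chance alone gives about 1 in 20. Myh7 was at 3.05 CPM in NC 7 and at 0.147 to 0.372 in the others. Ppargc1a was at 0.669 CPM in NC 7 against 4.54 to 4.99. Ptgs2 was at 2.93 CPM in NC 5 against 0.669 to 0.884, and Calca at 0.396 CPM in NC 5 against 0. Zdhhc17 was at 24.7 CPM in NC 6 against 19.8 to 20.5. The summed CPM of the calcium handling list was 5701 in NC 6 against 5089.8 to 5145. Neutrophil and mast cell markers summed to 66.4 CPM in NC 7 against 32.6 to 38.1, and immediate early genes to 1448 CPM in NC 7 against 2314 to 2485. TZG, with 3 libraries, was not looked at in this way.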

How the results depend on the processing

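No paired analysis was possible because the numbers in the titles of the TZG and NC libraries are not shared. The count of genes past an edgeR adjusted p of 0.05, 3 as reported, was 686 with DESeq2, which left 1828 genes without an adjusted p, 0 with limma-voom, 5 on library totals, 8 without the filter, 0 with a mean of at least 5 CPM (2010 at an unadjusted p under 0.05), 0 with all 10 libraries (762), 7 with 9 libraries without MPS 14 and 0 with the length correction (2051), and 92 at an adjusted p under 0.1. Leaving out 1 library gave 0 to 20. Of 215 genes followed, the number past the threshold was 3 as reported and 87, 0, 5, 8, 0, 0, 7 and 0 under the same 8 settings, and 0 to 12 when 1 library was left out, 12 being without TZG 43. Of 48 list medians, 23 were above 0 as reported, 10 on library totals and 19 to 25 otherwise. The difference in mitochondrial share, 2.32 points, ranged from -3.19 to 6.76 when 1 library was left out, the lowest without TZG 43.

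The log2 fold changes of Mier3, LOC100911575 and Tceal7 kept their sign under all 17 other settings, but each missed the threshold under 10. Of 3606 values of single genes, 23 turned in sign. On library totals these were Myh4 (-0.12), Fkbp5 (-0.20), Trim63 (-0.32, and -0.054 with limma-voom), Csf3r (-0.036) and Ccnd1 (-0.085). When 1 library was left out, the range was -0.62 to 2.52 for Col1a1, -0.11 to 1.22 for Il1b, -0.54 to 0.99 for Col3a1, -0.0036 to 0.44 for Fkbp5, -0.70 to 0.49 for Ptgs2, -0.39 to 0.34 for Trim63, -0.22 to 5.43 for Myoz2, -4.39 to 0.21 for Spp1, -1.06 to 4.96 for Thbs4, -0.13 to 1.41 for Scx, -0.84 to 1.49 for Fmod, -0.74 to 1.38 for Comp, -0.73 to 2.54 for Mbp, -0.25 to 0.98 for Egr2 and -0.18 to 0.037 for Eif2s3y. Beyond the construction of each setting, the cause was not tested. With 3 and 4 libraries, 1 of them apart from the rest, small fold changes could not be told from the spread.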

Other observations

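In the authors' deposited table, 18564 features have a log2 fold change for this comparison, 511 marked up and 195 marked down, and 368 have a q-value under 0.05. Every marked feature there has a p-value of at most 0.0499 and a log2 fold change of at least 1.001 in size, and 304 of the marked features have a q-value under 0.05.

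Without TZG 43, the genes past an edgeR adjusted p of 0.05 included some that the report does not name. Azin1, an inhibitor of antizyme that raises polyamine synthesis, was at 12.6, 17.2 and 31.9 CPM in TZG 26, 27 and 43 and at 51.0, 57.0, 68.1 and 72.2 CPM in NC 4, 5, 6 and 7 (log2 fold change -1.76 ± 0.211 without TZG 43; adjusted p = 0.0332). Smtnl1, a smoothelin-like protein of muscle, was at 137, 200.2 and 31.7 CPM against 45.9, 50.6, 44.3 and 24.6 (2.31 ± 0.279; adjusted p = 0.0332), and Coq8a, of ubiquinone synthesis like Coq7, at 433, 509 and 184 CPM against 249.97, 127, 205 and 134 (1.701 ± 0.259; adjusted p = 0.0499). Gria2, a glutamate receptor subunit, was at 0.191, 0.375 and 1.28 CPM against 3.39, 2.46, 5.36 and 5.13 (-3.52 ± 0.536; adjusted p = 0.0499). In Azin1 and Gria2, TZG 43 lay on the TZG side of NC, and in Smtnl1 and Coq8a it lay inside the NC range in plain CPM. That scale carries no TMM factor, and the factor of TZG 43, 0.731, raises its values relative to NC.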
